A study of Rattus norvegicus with 6 samples.

Results

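Collagen chain genes were followed in the hearts of rats given doxorubicin and of rats given saline. Members were all gene symbols of the deposited count table that consist of Col, a type number, the letter a and a chain number. There were 28 of them among 17487 symbols, each on a single row of the table. The low-count filter of the whole-table fit kept 17 members, and the other 11 had at most 9 counts in any library. Other chains of the family, such as Col4a2, Col6a1 and Col6a3, were not analysed here.

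Each library came from the heart of 1 adult male Wistar rat, an outbred laboratory strain. The doxorubicin group (n = 3) received doxorubicin hydrochloride, an anthracycline chemotherapy drug that damages heart muscle, at 3.75 mg/kg once a week into the tail vein over 4 weeks. The saline vehicle went to the control group (n = 3) on the same schedule, and no genetic change was stated for either. Animals are called control hearts 1 to 3 and treated hearts 1 to 3, with the library numbers of the labels. The labels did not state the part of the heart sampled or the interval between the last injection and collection.

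Collagens are extracellular proteins in which 3 chains wind into a triple helix. The fibrillar types I, III and V form the cable-like fibrils of the cardiac interstitium and are made mainly by fibroblasts. Type IV collagen forms the sheet-like network of the basement membranes that surround cardiomyocytes and capillaries, where types XV and XVIII are also found. Before secretion the chains are hydroxylated and folded in the endoplasmic reticulum by prolyl and lysyl hydroxylases and a collagen chaperone. Excess fibrillar collagen is the hallmark of cardiac fibrosis.

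The libraries held 2219685 to 3508282 counts. Of all counts, collagens took 0.322% in control heart 1 (95% binomial interval by Wilson, 0.316 to 0.329), 0.311% in control heart 2 (0.304 to 0.319) and 0.348% in control heart 3 (0.342 to 0.354). They took 0.237% in treated heart 1 (0.231 to 0.242), 0.418% in treated heart 2 (0.411 to 0.426) and 0.181% in treated heart 3 (0.176 to 0.185). The treated hearts therefore lay on both sides of the controls. Control heart 1 stood apart from the other 5 on the first principal component of all tested genes, which took 38.4% of the variance. On the second (20%), treated hearts 1 and 3, in which the fibrillar collagen sum was lowest, stood apart at opposite ends, at -25.2 and 25.6, with the other 4 between -8.92 and 7.79. Cardiomyocyte markers were abundant in every library, with a summed level of 94295 to 127658 CPM (counts relative to a TMM-scaled library size) over the 9 of 10 listed genes in the table. That sum was lower in treated hearts (94295 to 106128) than in controls (112406 to 127658). By edgeR, 1 of 9 genes, Ryr2, was past the adjusted threshold, where 0.0543% of all symbols were. Leaving out any single heart other than treated heart 2 left 0 of 9 past it. At an unadjusted p under 0.05 in edgeR, 3 (Myh6, Ryr2 and Tnni3) were lower and 0 higher, against 4.11% and 4% of all symbols. That count of 3 became 1 to 4 in the fits without 1 heart each, with Ryr2 in every one. The part of the lower cardiomyocyte marker sum in the collagen values was not tested. In bulk tissue, fewer cells of a type and less RNA per cell cannot be told apart.

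The sequence between Col4a1 and Col4a2 is shown because Col4a1 had the largest difference of the 17 tested chains. That before the annotated start of Col1a2 is shown because its group means were nearly equal. In the RefSeq table of the assembly GRCr8, 22 of the 28 members had a promoter entry. The counts were made on another build, mRatBN7.2, so these coordinates apply to GRCr8 alone. Col4a1 and Col4a2 stand head to head there, with 76 bases between their transcript starts, chr16:84885521-84885596, plus strand, reading toward Col4a1. The 250 bases before the annotated Col1a2 start are chr4:33518307-33518556, plus strand. Where transcription begins was not checked, so this window may hold transcribed bases. Capitals mark matches, on either strand, to the CCAAT box, the Sp1 box GGGCGG or the TATA box TATAAA.
Col4a1: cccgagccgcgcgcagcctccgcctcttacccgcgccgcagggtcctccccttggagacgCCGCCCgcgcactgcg
Col1a2: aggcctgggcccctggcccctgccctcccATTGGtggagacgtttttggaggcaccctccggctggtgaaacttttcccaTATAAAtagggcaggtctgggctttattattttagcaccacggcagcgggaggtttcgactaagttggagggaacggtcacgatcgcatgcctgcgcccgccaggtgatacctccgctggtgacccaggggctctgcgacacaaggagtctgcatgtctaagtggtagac
The Col4a1 window held 78.9% G and C and 1 match to GGGCGG, which 18.1% of all promoter entries hold in their last 76 bases before the start. The Col1a2 window held 58.4% G and C, 1 match to CCAAT and 1 to TATAAA, found in 34% and 12.9% of entries over 250 bases. Its TATAAA match lies nearer the far end of the window than the annotated start. The AP-1 site TGAGTCA and the SMAD motif CAGACA were searched on both strands too and had no match in either window, against 1.13% and 4.89% of entries over 76 bases and 4.05% and 17.2% over 250. The motifs did not overlap each other in these windows, and a match describes letters only.

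No collagen chain passed the adjusted threshold. With edgeR's quasi-likelihood test over 9205 symbols, 0 of 17 members had a Benjamini-Hochberg adjusted p under 0.05, where 0.0543% of all symbols did. DESeq2 and limma voom also called 0 members. At an unadjusted p under 0.05, 1 member was lower and 0 were higher in edgeR, against 4.11% and 4% of all symbols. DESeq2 also gave 1 lower and 0 higher, against 2.81% and 2.73% (5.54% in either direction), and voom gave 2 lower and 0 higher, against 4.26% and 3.78% (8.04% in either direction). The doxorubicin values lay wholly below the control values for 1 of 17 members, against 7.06% of all symbols, and wholly above them for 0, against 6.39%. These shares were near the background. Fitted log2 fold changes were below 0 for 11 members and above 0 for 6, with a median of -0.17 against 0.02 for all symbols tested. The members' median became 0.03 without treated heart 3.

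**Figure D1:**
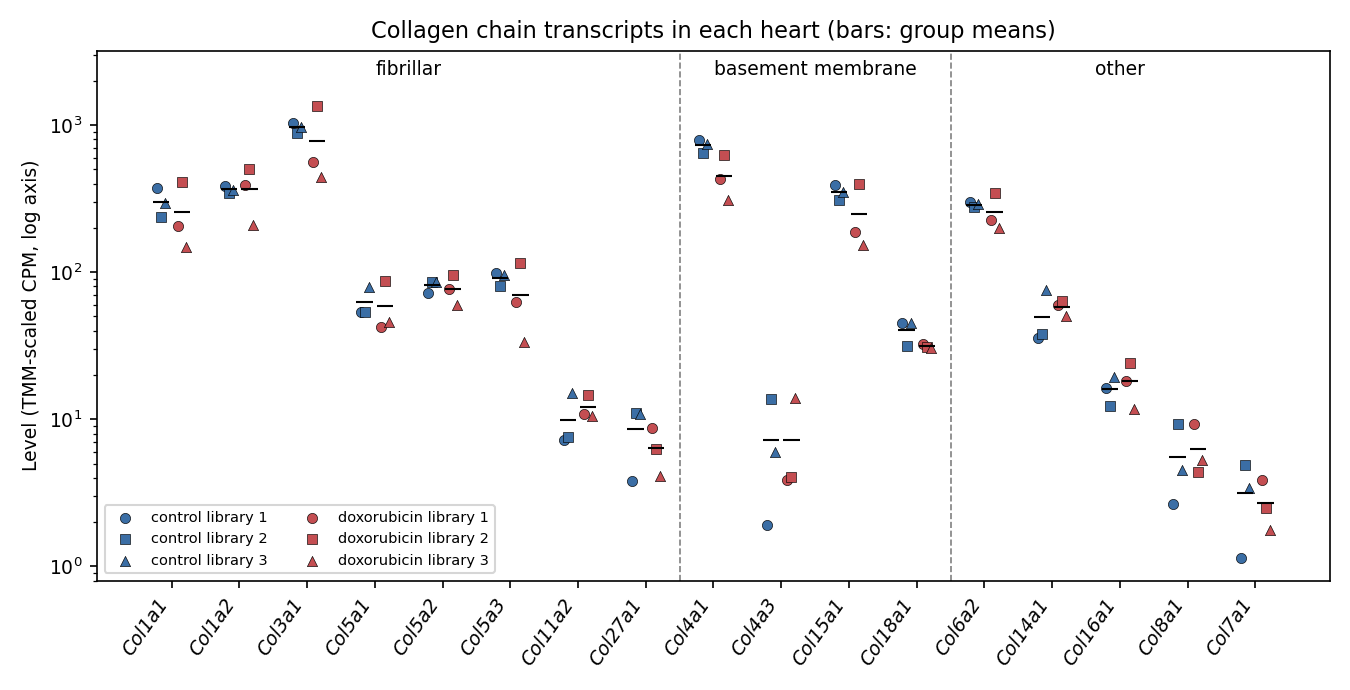
Level of each of the 17 tested collagen chains in each library, in TMM-scaled CPM on a log axis, by class; symbols are single hearts and bars are group means. For Col3a1 the treated hearts run from 443.6 to 1342 CPM while the controls lie between 889.8 and 1041 CPM, and for Col4a1 every treated heart lies below every control.

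Fibrillar chains did not differ between the groups beyond the spread of the treated hearts. Of 10 fibrillar members, 8 were tested, 6 with a fitted change below 0, and the class median log2 fold change was -0.17. The smallest adjusted p in the class was 0.802 by edgeR.

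Col3a1 encodes the single chain type of type III collagen, the fine fibril of distensible tissue. Its level was 1041, 889.8 and 971 CPM in control hearts 1, 2 and 3 and 559, 1342 and 444 CPM in treated hearts 1, 2 and 3. Treated heart 2 was the highest of all 6 and treated hearts 1 and 3 the lowest, so the groups overlapped. The group means were 967 ± 75.6 and 782 ± 489.1 CPM (SD, n = 3). Col3a1 had a log2 fold change of -0.31 with a 95% interval of -1.01 to 0.39 and an edgeR adjusted p of 0.841.

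Type I collagen is assembled from 2 chains encoded by Col1a1 and 1 encoded by Col1a2, and it is the main load-bearing fibril. Col1a1 was at 374, 239 and 294 CPM in the controls and at 206, 411 and 148 CPM in treated hearts 1, 2 and 3. Its log2 fold change was -0.25 (95% interval -0.92 to 0.43). Spans of 9 tested members overlap another annotated gene in GRCr8. Col1a1 overlaps Sgca, a muscle sarcoglycan gene, and the use of strand in counting was not stated. Sgca was at 258 to 381 CPM, with a log2 fold change of -0.20 (SE 0.19).

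Col1a2 was at 385, 348 and 364 CPM in the controls and at 391, 503.6 and 209 CPM in treated hearts 1, 2 and 3. Its control hearts lay within 1.11 times of each other, whereas its treated hearts spanned 2.41 times, on both sides of the controls. Its log2 fold change was 0.01 (95% interval -0.54 to 0.56). The count ratio of Col1a1 to Col1a2 was 0.972, 0.686 and 0.807 in control hearts 1, 2 and 3 and 0.527, 0.815 and 0.708 in treated hearts 1, 2 and 3. The groups overlapped (2-sided exact permutation test, p = 0.5, and 0.75 after Benjamini-Hochberg adjustment over 3 ratios, with 0.1 the smallest p possible).

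The ratio of Col3a1 to Col1a1 was 3.27 ± 0.473 in control and 2.99 ± 0.279 in treated hearts (SD, n = 3; exact permutation p = 0.4, adjusted 0.75). Col3a1 and Col1a1 thus varied together across the treated hearts, with ratios of 2.71, 3.27 and 3.00, although the highest and lowest levels differed 2.78 times for Col1a1 and 3.03 times for Col3a1.

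Type V collagen chains nucleate and limit the width of type I fibrils. Col5a3 was at 98.1, 80.9 and 95.1 CPM in the controls and at 62.6, 115 and 33.3 CPM in treated hearts 1, 2 and 3. That order was the one seen for Col3a1, with treated heart 2 highest and heart 3 lowest of the 6. Col5a1 was at 53.8, 53.8 and 79.8 CPM in the controls and at 42.7, 87.1 and 45.7 CPM in treated hearts 1, 2 and 3. Col5a2 varied least of the type V chains, from 72.2 to 86 CPM in control and from 59.5 to 96.1 CPM in treated hearts. The log2 fold changes were -0.38 (SE 0.33) for Col5a3, -0.10 (SE 0.27) for Col5a1 and -0.07 (SE 0.21) for Col5a2. The ratio of Col5a1 to Col5a2 was 0.767 ± 0.151 in control and 0.744 ± 0.175 in treated hearts (exact permutation p = 0.9).

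The remaining tested fibrillar chains were low. Col11a2, a chain of the minor type XI fibrils, had 17 to 53 counts per library and a log2 fold change of 0.25 (SE 0.35), which was 0.06 without control heart 1 and 0.70 without control heart 3. Col27a1 had 10 to 38 counts and a log2 fold change of -0.44 (SE 0.45). The cartilage chain Col2a1 had 0 to 4 counts and Col11a1 had 0 to 1. Cartilage markers summed to 17.6 to 24.4 CPM over 7 listed genes in the table, with Matn1, Matn3 and Cnmd at 0 in all libraries.

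**Figure D2:**
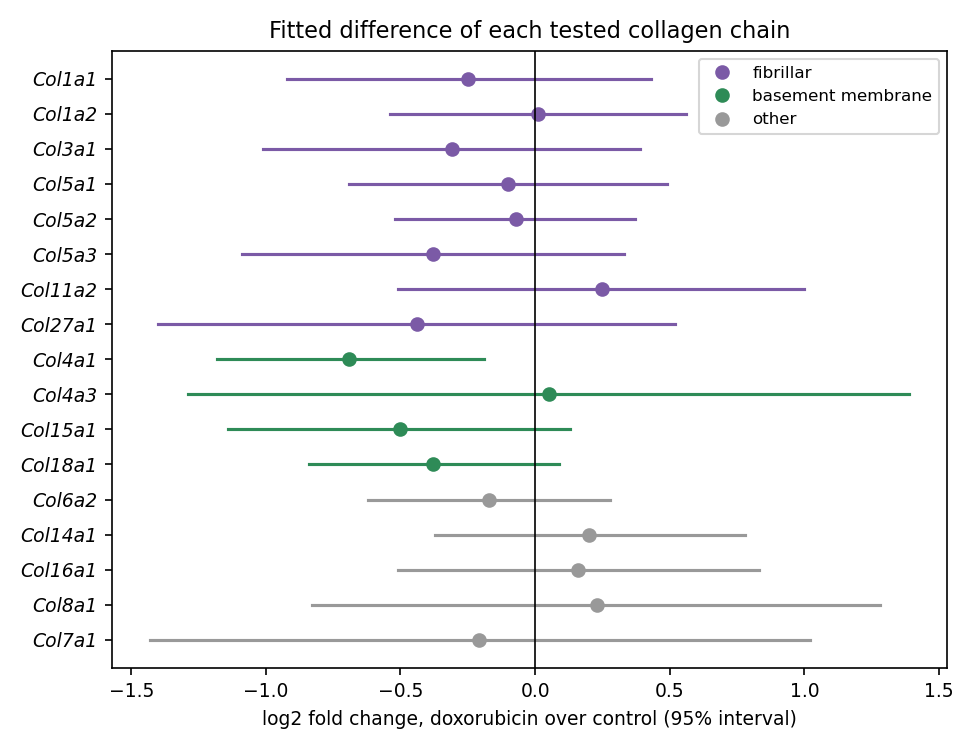
Fitted log2 fold change of each tested collagen chain, doxorubicin over control, with its 95% interval from edgeR's quasi-likelihood fit; colours are the classes. The interval of Col4a1, from -1.18 to -0.19, is the only one of the 17 that leaves out 0, before any adjustment for the number of genes tested.

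Basement membrane chains had the lowest class median, and Col4a1 was the one chain lower in every treated heart. Of 5 members of the class, 4 were tested, and the median log2 fold change was -0.44. Among these 4 fitted changes, 3 were below 0.

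Col4a1 encodes the alpha 1 chain of type IV collagen, which pairs with the alpha 2 chain in nearly all basement membranes. Its level was 787, 649.9 and 749 CPM in control hearts 1, 2 and 3 and 427, 622 and 310.4 CPM in treated hearts 1, 2 and 3. The highest treated heart lay just under the lowest control, and the other treated hearts lay well below it. The means were 729 ± 70.7 and 453 ± 157.6 CPM (SD, n = 3), on 1053 to 2636 counts per library. For Col4a1 the log2 fold change was -0.69 (SE 0.23), 1.61-fold lower, with an unadjusted p of 0.0106 and an adjusted p of 0.411 by edgeR. DESeq2 gave an adjusted p of 0.205 and voom 0.378. The unadjusted edgeR p was 0.0626 without treated heart 3, with a log2 fold change of -0.46.

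Endothelial cells make much of the type IV collagen of the heart, and their markers were set beside Col4a1. Of 12 endothelial markers tested, 0 passed the adjusted threshold, and the median log2 fold change was -0.04. At an unadjusted p under 0.05 in edgeR, 1 (Tie1) was lower and 0 were higher, against 4.11% and 4% of all symbols. Among the fits without a heart, Tie1 kept that level only without treated heart 1. Their summed level was 1920 to 2156 CPM in control and 2076, 2167 and 1606 CPM in treated hearts 1, 2 and 3. Counts of Col4a1 per count of Pecam1, an endothelial adhesion gene, were 2.38, 2.31 and 2.17 in control and 1.18, 1.89 and 1.09 in treated hearts 1, 2 and 3. The values of this ratio did not overlap, but Pecam1 was 1 of 12 markers and was chosen after the values were seen. Its own log2 fold change was 0.03. Other single markers were not used as denominators, among them Tie1, which was lower in every treated heart than in every control. Col4a1 is also made by other cells, whose part was not tested.

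Col15a1 encodes type XV collagen, a proteoglycan that links basement membranes to the interstitium in muscle and capillaries. Its level was 389, 311 and 349.9 CPM in the controls and 189, 400.0 and 152 CPM in treated hearts 1, 2 and 3. As for Col3a1, treated heart 2 was the highest of the 6 and the other treated hearts the lowest. Its log2 fold change was -0.50 (95% interval -1.14 to 0.13) and the edgeR adjusted p was 0.694.

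Col18a1 encodes type XVIII collagen, the precursor of the fragment endostatin. Its treated hearts were close together at 32.7, 31.2 and 30.4 CPM, against 45.4, 31.5 and 44.9 CPM in the controls. Control heart 2 lay among the doxorubicin values, so the groups overlapped. The log2 fold change was -0.38 (SE 0.22). Col4a3, a chain of the kidney and lung type IV network, had 5 to 47 counts per library and a log2 fold change of 0.05 (SE 0.62). Its partner Col4a4 had 2 to 5 counts and was not tested.

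Members of the other classes were level or low. Col6a2, a chain of the microfibrils of type VI collagen that lie beside basement membranes, was at 299, 277 and 289.7 CPM in the controls and at 226, 345 and 198 CPM in treated hearts 1, 2 and 3. Its controls lay within 1.08 times of each other, the treated hearts again lay on both sides, and the log2 fold change was -0.17 (SE 0.21). Col14a1, which sits on the surface of collagen fibrils, was at 35.9, 37.8 and 75.8 CPM in the controls and at 60, 63.3 and 50.7 CPM in treated hearts 1, 2 and 3. The spread here was larger among controls, and the log2 fold change was 0.20 (SE 0.27), with 0.02 without control heart 1, 0.05 without control heart 2 and 0.65 without control heart 3. Col16a1, another fibril-associated chain, was at 12.4 to 19.3 CPM in control and 11.8 to 24.3 CPM in treated hearts, with a log2 fold change of 0.16 (SE 0.31).

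Col8a1, a short-chain collagen of vessel walls, had 7 to 29 counts per library and a log2 fold change of 0.23 (SE 0.49). Col7a1, the anchoring fibril chain of skin, had 3 to 12 counts and a log2 fold change of -0.21 (SE 0.57). Beyond Col2a1, Col11a1 and Col4a4, the members that did not pass the filter were Col6a4, Col9a1, Col9a2, Col9a3, Col13a1, Col17a1, Col23a1 and Col26a1. Col6a4 had 1, 0 and 0 counts in the controls and 2, 3 and 2 counts in treated hearts. Col26a1 was listed at 0 in all 6 libraries, which allows up to 0.855 to 1.35 CPM by unscaled library total.

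**Figure D3:**
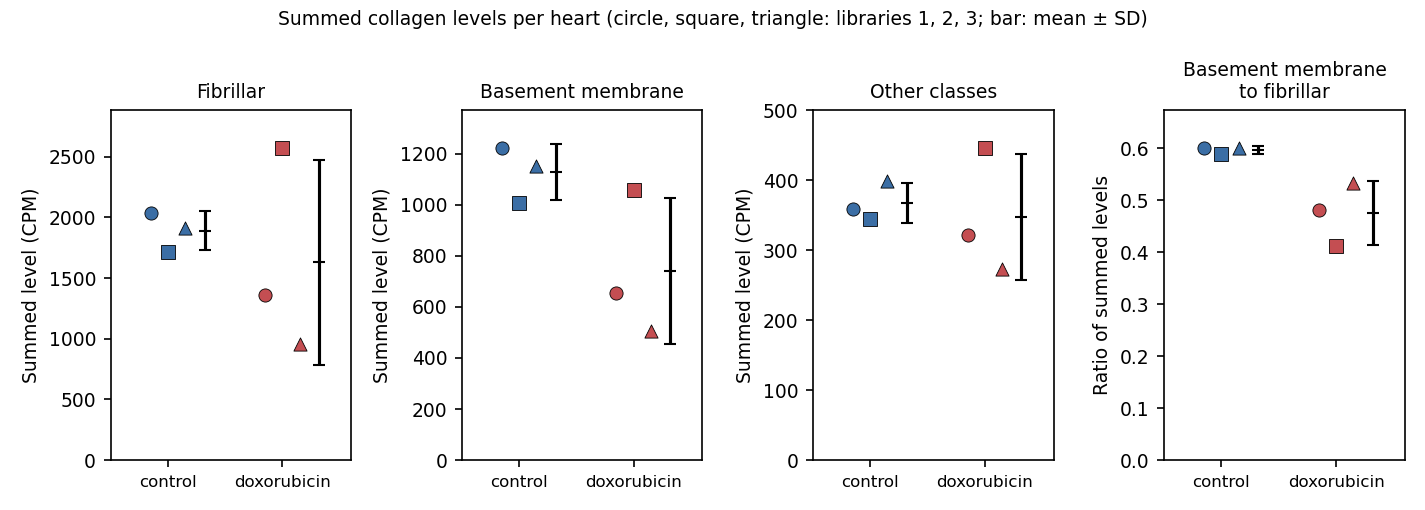
Summed level of the members of each class in each library in CPM, and the ratio of the basement membrane to the fibrillar sum; symbols are single hearts, and the bars give the mean ± SD of 3. The fibrillar sum of treated heart 2 is above and those of hearts 1 and 3 are below all controls, while the ratio is 0.588 to 0.601 in controls and 0.411 to 0.532 in treated hearts.

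Class sums gave the same picture per library. The fibrillar sum was 2035, 1716 and 1916 CPM in control hearts 1, 2 and 3 and 1358, 2575 and 954 CPM in treated hearts 1, 2 and 3. Col3a1 held 41.1% to 52.1% of it, as a share of counts, which also grows with transcript length. The basement membrane sum was 1224, 1008 and 1151 CPM in the controls and 654, 1059 and 508 CPM in treated hearts 1, 2 and 3. Col4a1 and Col15a1 held 91.1% to 96.6% of that sum. The means were 1128 ± 109.5 CPM in control and 739.9 ± 285.5 CPM in treated hearts (SD, n = 3), and treated heart 2 lay among the controls. The sum of the other classes was 344 to 399 CPM in control and 322, 447 and 273 CPM in treated hearts 1, 2 and 3.

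The balance between the classes separated the groups where the sums did not. Basement membrane over fibrillar level was 0.601, 0.588 and 0.601 in control hearts 1, 2 and 3 and 0.481, 0.411 and 0.532 in treated hearts 1, 2 and 3. Every treated heart was lower, including heart 2, in which both sums were the highest of the doxorubicin group. This ratio was formed after the values were seen and carries no test.

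**Figure D4:**
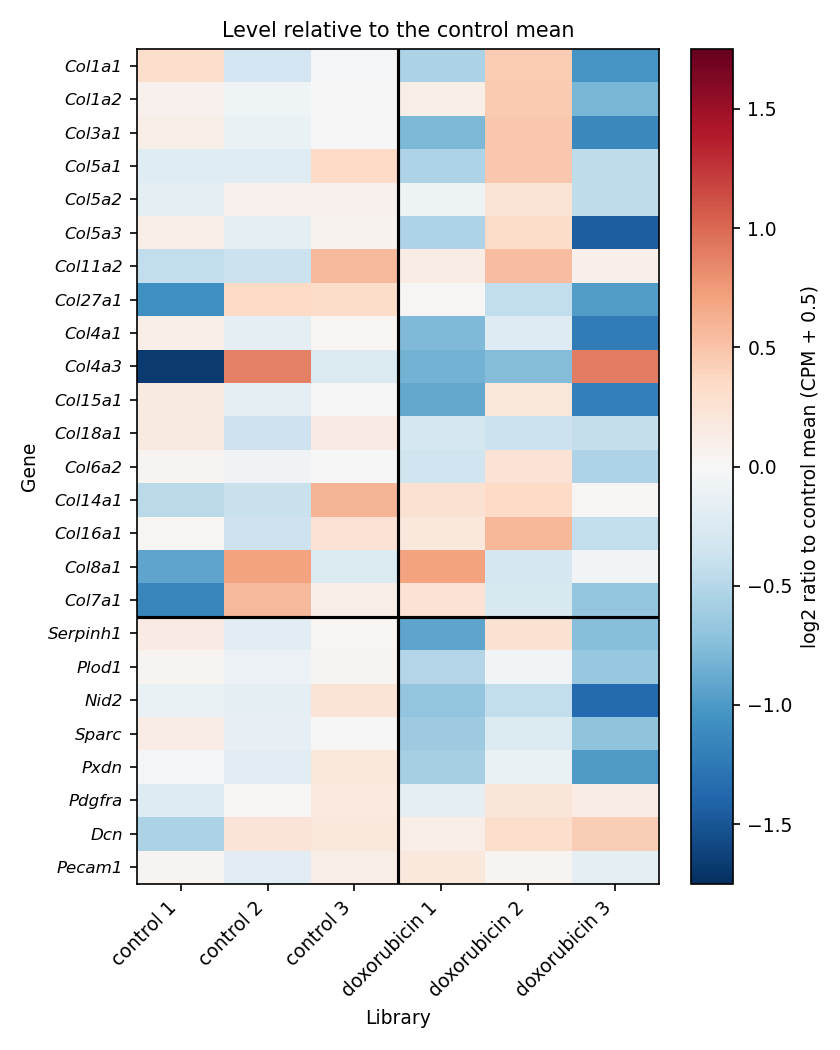
Level of each tested collagen chain (upper block) and of 8 genes of collagen folding, basement membrane and cell type lists (lower block) in each library, as the log2 ratio to the control mean after adding 0.5 CPM. Col4a1 is blue in every treated heart, and Col1a2 is faintly red in treated heart 1. Col3a1, Col1a1, Col15a1, Col6a2 and the type V chains are blue in treated hearts 1 and 3 and red in heart 2, as is Serpinh1. Pdgfra, Dcn and Pecam1, the cell type markers drawn, do not show that order. Other markers of the same lists, such as Mfap4, Mfap5 and Emcn, are not drawn and did have it.

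The SD of log2 CPM was larger among treated than among control hearts for 10 of 17 tested members, against 47.5% of all symbols. It was larger among controls for the other 7, Col11a2, Col27a1, Col4a3, Col18a1, Col14a1, Col8a1 and Col7a1. Treated heart 2 was the highest of the 3 treated hearts for 12 of 17 tested members, against 31.9% of all symbols tested. Heart 3 was the lowest for 14 of 17, against 35.8%. Both held for 11 members, against 17.4% of symbols. Members share libraries and cells of origin and are not independent. The median SD of log2 CPM over members was 0.31 in control and 0.51 in treated hearts, where all symbols had 0.27 and 0.26.

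Leaving out treated heart 2 gave more members lower than leaving out any other. Without it, 5 of 17 members were lower at an unadjusted p under 0.05 in edgeR, against 4.39% of all symbols, and 0 were higher, against 5.15% (9.53% in either direction). They were Col15a1 (log2 fold change -1.03), Col4a1 (-0.97), Col3a1 (-0.94), Col5a3 (-0.92) and Col1a1 (-0.76). Still 0 members passed the adjusted threshold, where 0.373% of symbols did, and the smallest adjusted p was 0.0776, for Col15a1. The remaining groups did not overlap for 7 members, all lower, against 13.4% of symbols lower. Without treated heart 3 instead, 0 members were lower and 0 higher at an unadjusted p under 0.05 by edgeR, against 2.82% and 3.59% of symbols (6.42% in either direction), and 0 passed the adjusted threshold (0% of symbols). The log2 fold change of Col3a1 was then -0.02.

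Levels of cell type markers were read in the same libraries. The 12 fibroblast markers summed to 5325 to 5795 CPM in control and 5714, 6679 and 5343 CPM in treated hearts 1, 2 and 3, with a median log2 fold change of 0.01 and 0 of 12 past the adjusted threshold. Pdgfra, a receptor that defines fibroblasts, was at 64.2, 76.4 and 84.6 CPM in control and at 67.1, 86.7 and 81.9 CPM in treated hearts 1, 2 and 3. Markers of the list did not share a single order. Mfap5 was at 45.1, 29.3 and 35.5 CPM in control and 26.3, 45.9 and 25.9 CPM in treated hearts 1, 2 and 3. Mfap4 was at 125.2, 215.3 and 90.8 CPM in treated hearts 1, 2 and 3, whereas Dcn was highest in treated heart 3. Counts of Col3a1 per count of Pdgfra were 16.2, 11.6 and 11.5 in control and 8.33, 15.5 and 5.41 in treated hearts 1, 2 and 3. With this denominator the ratio kept the wide spread seen in Col3a1 itself. Mfap4 and Mfap5, whose order in treated hearts was that of Col3a1, were not used as denominators. The ratio to Pdgfra was formed after the values were seen, and the part of fibroblast content was not tested. Of 10 activated fibroblast markers, 5 were tested, 3 with a fitted change below 0, with a median log2 fold change of -0.21 and 0 past the adjusted threshold. At an unadjusted p under 0.05 in edgeR, 1 (Postn) was higher and 0 were lower, against 4% and 4.11% of all symbols. Acta2 and Tagln, contractile genes of myofibroblasts and smooth muscle, had log2 fold changes of -0.44 and -0.45, the protease gene Fap -0.21 and Ltbp2 0.06. Postn, a matrix protein of injured heart, was at 2.29, 7.11 and 5.11 CPM in control and 13.5, 15.0 and 6.48 CPM in treated hearts 1, 2 and 3. Its log2 fold change was 1.27 (unadjusted edgeR p 0.0139, adjusted 0.443). That unadjusted p was 0.0559 without control heart 1 and 0.058 without treated heart 2. Among untested markers, Tnc had 1, 1 and 1 counts in control and 9, 9 and 3 in treated hearts. Meox1 had 11, 2 and 15 counts in control and 5, 3 and 3 in treated hearts. Cthrc1 was at 0 in all libraries. The summed level of that list was 201 to 289.4 CPM in control and 223, 269 and 118 CPM in treated hearts 1, 2 and 3.

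Of 10 macrophage markers, all tested, 0 passed the adjusted threshold and 3 (Cd163, Lyz2 and Mrc1) were higher at an unadjusted p under 0.05 by edgeR, against 4% of all symbols. Without control heart 1 that left 1, Lyz2, and 2 without control heart 3 or treated heart 2. Without treated heart 1, Cd163 dropped out and C1qb and C1qc entered. Without treated heart 3, Mrc1 dropped out and C1qa entered. Only Lyz2 kept that level in every fit without a heart. The markers summed to 268 to 282 CPM in control and to 322, 528 and 360.2 CPM in treated hearts 1, 2 and 3. Treated heart 2, the heart with the highest fibrillar sum, thus also had the highest macrophage sum, and its part in the collagen values was not tested. Mural cell markers summed to 4872 to 6376 CPM in control and 4723 to 5114 CPM in treated hearts. Mesothelial markers summed to 23.9 to 40.6 CPM over the 6 libraries. Blood markers ran from 650 to 6943 CPM, highest in control heart 1 and lowest in treated heart 1, with Alas2 at 0.

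The machinery that makes, crosslinks, anchors and breaks down collagen was read from 6 lists. Of 58 different genes tested, 0 passed the adjusted threshold of edgeR. At an unadjusted p under 0.05, 2 were higher and 4 lower, 10.3% against 8.1% of all symbols in either direction. By DESeq2, 1 was higher and 4 lower at that level. Every treated heart lay above every control for 2 of the 58, and below every control for 3. Over all symbols the shares were 6.39% above and 7.06% below. Such separation was therefore no more frequent in the lists than among genes in general.

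In the endoplasmic reticulum list, 17 of 23 genes were tested, and the median log2 fold change was -0.09. By edgeR, 1 was higher and 0 lower at an unadjusted p under 0.05, against 4% and 4.11% of all symbols. Serpinh1, the collagen-specific chaperone, was at 417, 332 and 389 CPM in control and at 199.7, 459 and 226 CPM in treated hearts 1, 2 and 3. Like Col3a1 and Col15a1, it was highest in treated heart 2 and lowest in hearts 1 and 3, and its log2 fold change was -0.37 (SE 0.27). P4ha2, a prolyl hydroxylase subunit, was at 29.8, 32.0 and 34.4 CPM in control and 50.4, 48.4 and 37.1 CPM in treated hearts 1, 2 and 3. Its groups did not overlap, and the fitted log2 difference was 0.50 (SE 0.21, edgeR adjusted p 0.558). Its unadjusted edgeR p of 0.0336 became 0.057 to 0.105 on leaving out any single heart other than treated heart 3. The lysyl hydroxylase gene Plod1 had a log2 fold change of -0.38 (SE 0.20). For P3h4, a partner of that hydroxylation, it was -0.41 (SE 0.33).

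In the list of procollagen processing and crosslinking, 7 of 13 genes were tested and 0 were past an unadjusted p of 0.05 in edgeR in either direction, with a median log2 fold change of 0.17. Adamts2, the procollagen N-proteinase, was at 31.8 to 38.6 CPM in control and 39.5 to 54.9 CPM in treated hearts. Its groups did not overlap, and the log2 fold change was 0.34 (SE 0.22). Bmp1, the C-proteinase, had a log2 fold change of 0.17, and the lysyl oxidase-like genes Loxl3 and Loxl4 had 0.31 and 0.97, on at most 34 counts per library. Loxl4 was at 0.28 without treated heart 1 and 1.86 without control heart 2, and Loxl3 at 0.10 without control heart 1 and 0.65 without control heart 3.

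In the list of collagen breakdown, 10 of 15 genes were tested, and the median log2 fold change was -0.17. By edgeR, 1 was lower and 0 higher at an unadjusted p under 0.05, against 4.11% and 4% of all symbols. Mmp15, a membrane-bound matrix metalloproteinase, was at 250.5, 169.7 and 162 CPM in control and 119.7, 154 and 147 CPM in treated hearts 1, 2 and 3, a log2 fold change of -0.46 (SE 0.21). The groups did not overlap, and the adjusted p was 0.586 in edgeR. Control heart 1 was far the highest, and without it the log2 fold change was -0.23 (unadjusted edgeR p 0.191). That p was 0.143 without treated heart 1 and 0.0592 without treated heart 3. For the protease cathepsin K (Ctsk) the log2 fold change was -0.42 (SE 0.26), and for the inhibitors Timp3 and Timp4 it was 0.24 and -0.22. Mmp13 and Timp1 were listed at 0 in all libraries.

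Of the collagen receptors, 3 of 9 genes were tested, with a median log2 fold change of 0.29. At an unadjusted p under 0.05 by edgeR, 1 was higher and 0 lower, against 4% and 4.11% of all symbols. Ddr2, a tyrosine kinase receptor for fibrillar collagen, was at 6.11, 11.1 and 7.38 CPM in control and 8.35, 18.4 and 23.9 CPM in treated hearts 1, 2 and 3. The groups overlapped at treated heart 1, and the log2 fold change was 1.06 (SE 0.39, edgeR adjusted p 0.477). Its unadjusted edgeR p of 0.0178 became 0.0653 without control heart 1, 0.0608 without control heart 3 and 0.0968 without treated heart 3. For the integrin genes the fitted log2 values were 0.29 (SE 0.24) for Itgb1 and -0.34 (SE 0.42) for Itga1.

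Among partners of type IV collagen in the basement membrane, 11 of 17 were tested, and 3 were lower and 0 higher at an unadjusted p under 0.05 by edgeR, against 4.11% and 4% of all symbols. The list's median log2 fold change was -0.04. The count of 3 became 0 without control heart 3 and 1, Nid2, without treated heart 1 or treated heart 3. Nid2, a nidogen that ties the type IV network to laminin, was at 42.0, 40.4 and 53.7 CPM in control and 27.9, 33.7 and 17.4 CPM in treated hearts 1, 2 and 3. As for Col4a1, every treated heart was lower than every control. The log2 fold change was -0.79 (SE 0.26, edgeR adjusted p 0.378).

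Sparc, which binds type IV collagen, was at 2509, 2069 and 2303 CPM in control and 1473, 1947 and 1403 CPM in treated hearts 1, 2 and 3. Its groups did not overlap either, with a log2 fold change of -0.51 (SE 0.19, edgeR adjusted p 0.477). Pxdn, the peroxidase that crosslinks type IV collagen, was at 155, 139.5 and 181 CPM in control and 106, 147 and 79.6 CPM in treated hearts 1, 2 and 3, so that heart 2 overlapped the controls. Its log2 fold change was -0.52 (SE 0.22). Lamb3 had a log2 fold change of -0.72 (SE 0.42) on at most 27 counts.

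The partners of fibrillar collagen, 10 of 12 tested, had 0 genes past an unadjusted p of 0.05 in edgeR in either direction and a median log2 fold change of 0.08. Dcn, a proteoglycan that coats collagen fibrils and marks fibroblasts, was at 522, 902 and 882 CPM in control and 830.1, 954 and 1038 CPM in treated hearts 1, 2 and 3. It was lowest in control heart 1 and highest in treated heart 3, where the fibrillar collagen sum was lowest. Its log2 fold change was 0.29 (SE 0.22), and Thbs2, Fbn1 and Sparcl1 had 0.46, 0.17 and 0.14. Bgn was listed at 0 in all libraries.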

How the data were processed

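RNA of 6 rat hearts, 3 control and 3 doxorubicin, was compared. Raw counts, not normalized, were deposited by the authors for annotated genes in 1 table of 18473 rows and 17487 symbols. The submitters' processing notes name FastQC, Trimmomatic, STAR, HTSeq and the build mRatBN7.2, and versions, counting mode and use of strand are not given in the sources used here. Rows of a symbol were summed. The fit over all symbols used edgeR 4.0.16 in R 4.3.3 with TMM factors, filterByExpr (minimum count 10, minimum total 15), robust quasi-likelihood F tests and Benjamini-Hochberg adjustment over the 9205 symbols kept, at a threshold of 0.05. Standard errors were taken as the size of the log2 fold change over the square root of F. Voom came from limma 3.58.1, and DESeq2 1.42.0 and 15 alternative settings in all were run. The fit was tested on simulated counts. Wilson intervals and the limit of 3 counts cover counting error only, and intervals of log2 fold changes come from the edgeR fit and include the spread between hearts. Members and lists were chosen with earlier results of these data known. Named genes were all tested members and, from each list, the 4 with the smallest p and any under 0.05. Genes named beyond these were picked with their values known. Of 6 planned chain ratios, the 3 whose genes were both in the table were computed. Each library is 1 animal, and libraries of a group differed by more than sampling noise. Replicate numbers come from the titles. Tables and permutation tests used scipy 1.17.1, numpy 2.4.6 and pandas 2.3.3, and figures matplotlib 3.10.9, in Python 3.11.15.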

Additional observations from a re-analysis of the deposited data

How the results depend on the processing

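All 15 alternatives were planned, and in each of them 0 members passed the adjusted threshold. Of 255 log2 fold changes of members recomputed, 236 kept their direction and 19, in 8 genes, reversed, and of 345 for named list genes 5, in 4 genes, reversed. Why they did was not tested. Col4a1 kept its direction in all 15. Members lower at an unadjusted p under 0.05 (1 as reported) numbered 2 with voom, 2 with the replicate block (Col4a1 and Col15a1) and 0 to 5 in the fits without 1 heart each, and members higher (0) numbered 0 to 1. Members whose groups did not overlap numbered 0 to 2 higher and 1 to 7 lower without 1 heart each, and with no filter 1 was higher, Col6a4. List genes at that unadjusted level (2 higher, 4 lower) numbered 1 higher with DESeq2 and 1 with the replicate block, 2 lower with library size only, and 0 to 2 higher and 1 to 8 lower without 1 heart each. The lowest counts came without control heart 1 for the genes higher, and without control heart 3, treated heart 1 or treated heart 3 for those lower. Deviations of same-numbered libraries correlated at only -0.185 to 0.0211 over 3 pairs. No signal shared by number was seen, which cannot exclude a pairing of the animals. The replicate block changed no adjusted call of a member. With library size only, Col5a2 was at 0.00, the members' median at -0.08 and that of all symbols at 0.10. Voom and the replicate block each put Col1a2 at -0.08. Without 1 heart each, the log2 fold changes that reversed ranged from -0.76 to 0.04 for Col1a1, -0.27 to 0.30 for Col1a2, -0.49 to 0.12 for Col5a1, -0.25 to 0.09 for Col5a2, -0.82 to 0.84 for Col4a3, -0.10 to 0.40 for Col16a1, -0.15 to 0.79 for Col8a1, -0.58 to 0.19 for Col7a1, -0.03 to 0.29 for Bmp1, -0.01 to 0.45 for Itgb1, -0.09 to 0.36 for Fbn1 and -0.10 to 0.34 for Sparcl1, and the log2 difference of the Col5a1 to Col5a2 ratio from -0.21 to 0.14. Without a change of sign, they ranged from 0.06 to 0.70 for Col11a2, 0.02 to 0.65 for Col14a1, -0.78 to -0.20 for Col27a1, -0.94 to -0.02 for Col3a1, -0.92 to -0.03 for Col5a3, -1.03 to -0.24 for Col15a1 and -0.43 to -0.01 for Col6a2. In simulated counts of 9205 symbols, 68% of genes changed 2-fold and 98% of those changed 4-fold were called. The simulation gave every gene the same biological spread in both groups, with 100 genes changed at each size. Col3a1 and Col1a1 had an SD of log2 CPM of 0.84 and 0.75 among treated hearts, against 0.11 and 0.32 among controls. The simulated shares therefore do not carry over to such collagens, whose differences, 2-fold ones included, could be missed.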
